A study of Mus musculus with 8 samples.

Results

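The transcripts described here are 7 genes that organise lymphoid tissue: the homing chemokines Cxcl13, Ccl19 and Ccl21a, the chemokine receptors Ccr7 and Cxcr5, and the lymphotoxins Ltb and Lta. They were taken by symbol from a gene table of 55450 genes, and all 7 were found. The set was chosen with earlier results of these data known. In lymph nodes, stromal cells release CXCL13, which draws B cells and follicular helper T cells through the receptor CXCR5, and CCL19 and CCL21, which draw T cells and mature dendritic cells through CCR7. Lymphotoxin made by lymphocytes acts on the lymphotoxin beta receptor of stromal cells and keeps these chemokines switched on. The same set of signals is known from tertiary lymphoid structures, the lymph node-like aggregates that form in some tumours.

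Bulk polyA RNA was sequenced from tumours of MOC1, a mouse oral squamous carcinoma line, grown in the flank of C57BL/6 mice. All mice received an antibody against PD-1, an inhibitory receptor of T cells, for 32 days, together with antisense oligonucleotides (ASOs), short synthetic strands that lead to the breakdown of a matching transcript. The control arm held 3 tumours given control ASOs with anti-PD-1 (control 1, 2 and 3), and the other arm held 5 tumours given ASOs against Smyd3, a lysine methyltransferase, with anti-PD-1. In the Smyd3 ASO arm, 2 tumours were labelled responders (responder 1 and 3), 2 were labelled non-responders (numbered 1 and 2 here only as names), and 1 carried no response mark (unmarked 2). There was no tumour without anti-PD-1 and no untreated tumour, and how response was scored is not given in the sources used here. The labels name a tongue carcinoma as the source while the design text places the tumours in the flank. They give no age, sex or route of the ASOs, and do not say whether each library came from a separate mouse, so p-values measure the spread between these libraries.

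Library totals lay between 22103853 and 27258700 expected counts, and mitochondrial transcripts took between 1.94% and 2.58% of them. Levels are CPM, the counts scaled to the library size after TMM normalisation. The targeted transcript, Smyd3, stood at 10.7, 11.9 and 10.6 CPM in control 1, 2 and 3. In the Smyd3 ASO arm it was 8.67 in responder 1, 4.58 in unmarked 2, 4.38 in responder 3, and 9.25 and 4.88 in the non-responders. All 5 values lay below the lowest control (exact permutation test over the 56 splits of 8 libraries, two-sided p = 0.0357), while the edgeR fit gave a log2 fold change of -0.80 (SE 0.290, adjusted p = 0.246). Keratinocyte genes that mark the tumour cells were abundant in every library, with Krt14 between 6748 and 14056 CPM.

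Ccl21a and Ccl19 each have nearly identical copies elsewhere on mouse chromosome 4, and this bears on every value given for them. In the GENCODE M21 annotation of mm10, Ccl21a lies on the minus strand at chr4:42772860-42773993 and its expressed copy Gm21541 on the plus strand at chr4:41903610-41904743. The Ccl21a transcript matched that of Gm21541 over 870 bases at 99.31% identity. Over the 399 coding bases, Gm21541, Gm13304, Ccl21b and Gm10591 carried the same 2 substitutions against Ccl21a, T84A and C194T, counted from the first coding base of Ccl21a. The stretch that holds both, from coding base 70 to 210, is shown because only reads that cover a capital letter tell Ccl21a from its copies within it.
Ccl21a: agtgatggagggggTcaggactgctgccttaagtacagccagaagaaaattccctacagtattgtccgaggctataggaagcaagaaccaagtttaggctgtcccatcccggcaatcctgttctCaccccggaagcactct
Gm21541: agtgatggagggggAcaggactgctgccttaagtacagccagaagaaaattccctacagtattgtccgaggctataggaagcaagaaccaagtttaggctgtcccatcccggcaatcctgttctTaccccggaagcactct

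Ccl19 lies at chr4:42754525-42756577 on the minus strand, and its copy Gm2564 at chr4:42629719-42631714 on the plus strand. Their transcripts matched over 707 bases at 98.87% identity, and 1 of 324 coding bases differed. That substitution, T2C, falls in the start codon of Ccl19, as the first 60 coding bases show with the differing base in capitals.
Ccl19: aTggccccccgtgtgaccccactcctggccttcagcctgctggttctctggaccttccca
Gm2564: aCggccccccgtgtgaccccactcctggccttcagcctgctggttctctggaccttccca

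The deposited values were RSEM expected counts, which divide a read that fits several genes among them. For Ccl21a the count was 315, 17 and 184 in control 1, 2 and 3, 55.4 in responder 1, 830 in unmarked 2, 1035 in responder 3, and 23.9 and 29 in the non-responders. Gm21541 was given 110, 0, 25.3, 7.3, 298, 414, 0 and 0 reads in the same order. Ccl21a thus took between 71.5% and 100% of the reads of its family, and the family sum (426, 17, 209, 64, 1128, 1449, 30 and 29 reads) kept the same libraries at the top and at the bottom.

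The division was less even for Ccl19. Its own counts were 1, 3.56 and 3.56 in the controls, 22.6 in responder 1, 0 in unmarked 2, 46.1 in responder 3, and 3.91 and 1.27 in the non-responders, while Gm2564 was given 2, 7.44, 0, 16.5, 8.84, 89.9, 7.09 and 19.7 reads. Ccl19 took between 0% and 71.2% of the family sum, which was 3, 11, 5, 40, 11, 138, 11 and 21 reads. In 6 of the 8 libraries most reads of the family were thus assigned to a copy. The family sums are therefore given beside Ccl19 and Ccl21a below. They were added after the counts had been seen. A further gene model, 4930578G10Rik, spans both chemokines on the opposite strand and was listed at 0 in all 8 libraries.

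**Figure D1:**
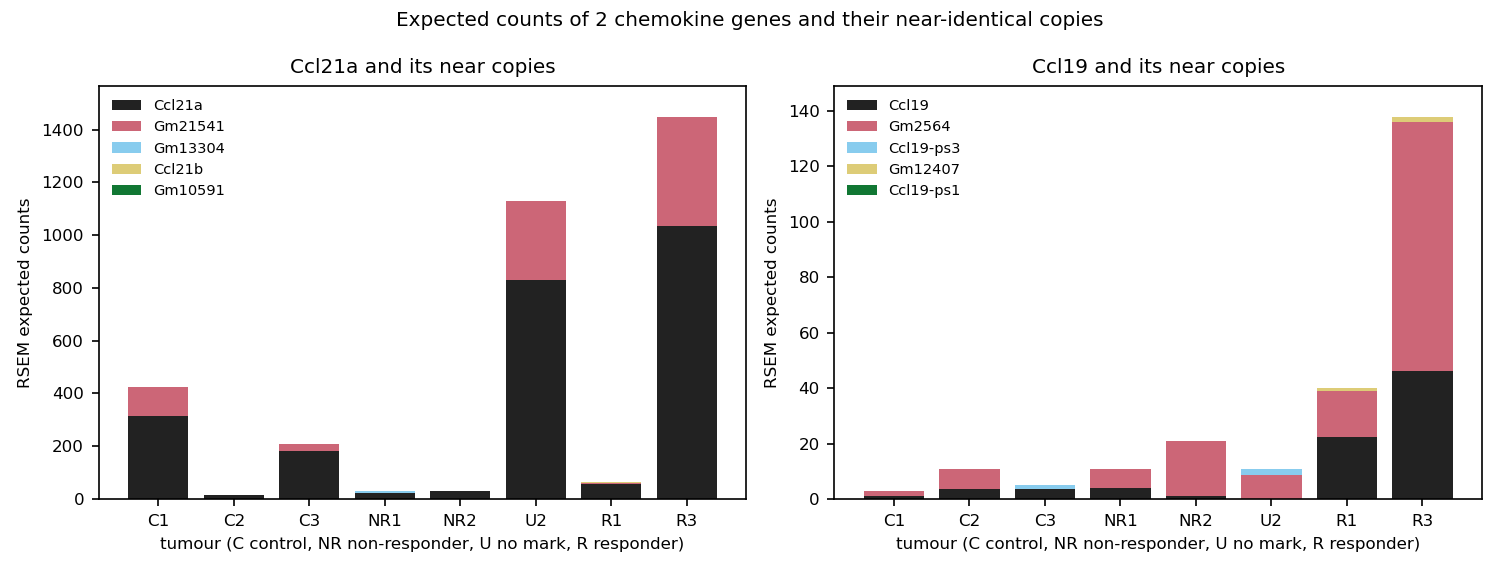
Stacked bars give the RSEM expected counts (y axis, from 0) of Ccl21a (left) and Ccl19 (right) and of their near copies in each tumour (x axis), coloured by gene. Gm21541 took up to 414 reads beside Ccl21a, and Gm2564 took 89.9 of the 138 reads of the Ccl19 family in responder 3.

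Among the 3 ligands, Cxcl13 (chr5:95956951-95961068, plus strand), the B cell attractant, did not follow the arms. Its level was 0.208, 4.19 and 0.505 CPM in control 1, 2 and 3, 3.16 in responder 1, 0.116 in unmarked 2, 13.4 in responder 3, and 0.875 and 2.83 in the non-responders. Responder 3 was highest, control 2 second, and unmarked 2 lowest with 3 reads, so the arms overlapped fully. The mean was 1.63 ± 2.22 CPM in controls (SD, n = 3) and 4.07 ± 5.35 in the Smyd3 ASO arm (n = 5).

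Ccl21a, which lymphatic endothelium and stromal cells of T cell zones release, was high in other tumours. It stood at 13.1, 0.758 and 7.74 CPM in the controls, 2.23 in responder 1, 32.2 in unmarked 2, 37.5 in responder 3, and 1.11 and 1.26 in the non-responders. Control 2, with the second highest Cxcl13, had the lowest Ccl21a, and unmarked 2, with the lowest Cxcl13, had the second highest Ccl21a. The highest value was 49.4 times the lowest.

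Ccl19, the other CCR7 ligand, was low throughout, at 0.0415, 0.178 and 0.168 CPM in the controls, 0.932 in responder 1, 0 in unmarked 2, 1.66 in responder 3, and 0.184 and 0.0435 in the non-responders. Both responders lay above the other 6 libraries. With the near copies summed, the level was 0.125, 0.490 and 0.210 CPM in the controls, 1.62 in responder 1, 0.427 in unmarked 2, 4.99 in responder 3, and 0.506 and 0.914 in the non-responders. On the family sum 4 of the 5 Smyd3 ASO tumours lay above the highest control.

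Of the receptors, Ccr7 (chr11:99144196-99155077, minus strand), carried by naive and central memory T cells and by mature dendritic cells, stood at 1.54, 3.70 and 1.35 CPM in the controls. It was 6.61 in responder 1, 3.26 in unmarked 2, 12.95 in responder 3, and 5.20 and 6.01 in the non-responders. Both responders and both non-responders lay above every control, and unmarked 2 lay below control 2. Cxcr5 (chr9:44511787-44561877, minus strand), the CXCL13 receptor of B cells and follicular helper T cells, was near the limit of detection, with 5, 6 and 5 reads in the controls, 9 in responder 1, 2 in unmarked 2, 23 in responder 3, and 8 and 11 in the non-responders. These corresponded to between 0.0776 CPM in unmarked 2 and 0.832 CPM in responder 3. Cxcr5 shares 110 bases with Bcl9l on the opposite strand, which stood at 198 to 375 CPM, and whether the counting used strand is not given in the sources used here.

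Ltb (chr17:35194439-35196320, plus strand) encodes the membrane-bound lymphotoxin subunit, and Lta (chr17:35203165-35205351, minus strand) the subunit that is also secreted on its own. Ltb stood at 2.08, 3.61 and 1.35 CPM in the controls, 4.78 in responder 1, 5.78 in unmarked 2, 11.2 in responder 3, and 3.32 and 5.18 in the non-responders. Only non-responder 1 of the Smyd3 ASO arm lay inside the control range. Lta had 8, 3 and 7 reads in the controls, 4 in responder 1, 7 in unmarked 2, 12 in responder 3, and 3 and 4 in the non-responders. It was too low to be tested in edgeR. Its mean was 0.253 ± 0.105 CPM in controls (SD, n = 3) and 0.236 ± 0.122 CPM in the Smyd3 ASO arm (n = 5).

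Ltb and Lta flank Tnf (chr17:35199381-35202007), another ligand of the same family, and the 3 neighbours did not share 1 pattern. Tnf lay between 9.05 and 9.39 CPM in the controls and between 12.2 and 18.5 CPM in the Smyd3 ASO arm, with unmarked 2 highest. Among the 5 members with a RefSeq promoter window of 300 bases (Cxcl13, Ccl19, Ccl21a, Ltb and Lta), the Ltb window alone held a match to the NF-kB consensus, a match found in 1480 of all 32851 windows (4.5%). It starts at position -87 from the RefSeq start and is shown in capitals, where it reads on the minus strand, because lymphotoxin signalling acts through NF-kB. The 60 bases printed (GRCm38.p6, chr17:35194379-35194438, plus strand) end just before the GENCODE start of Ltb. The match is a description of letters only.
Ltb promoter: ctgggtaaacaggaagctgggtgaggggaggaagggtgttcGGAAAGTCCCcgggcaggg

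Per kilobase of exon, Ccl21a had the highest mean of the 7, at 13.8 ± 17.0 CPM per kb (SD, n = 8 libraries), but it ranked first only in control 1, control 3, unmarked 2 and responder 3. Ccr7 and Ltb lay above it in the other 4 libraries. Ltb followed at 3.08 ± 2.01, Cxcl13 at 2.74 ± 3.82 and Ccr7 at 2.57 ± 1.88 CPM per kb, and these 3 did not differ beyond their spread. Ccl19 stood at 0.463 ± 0.682, Lta at 0.175 ± 0.078 and Cxcr5 at 0.105 ± 0.069 CPM per kb. The spread of Ccl19 covered the means of Lta and Cxcr5. Responder 3 held the highest value of all 7 members.

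**Figure D2:**
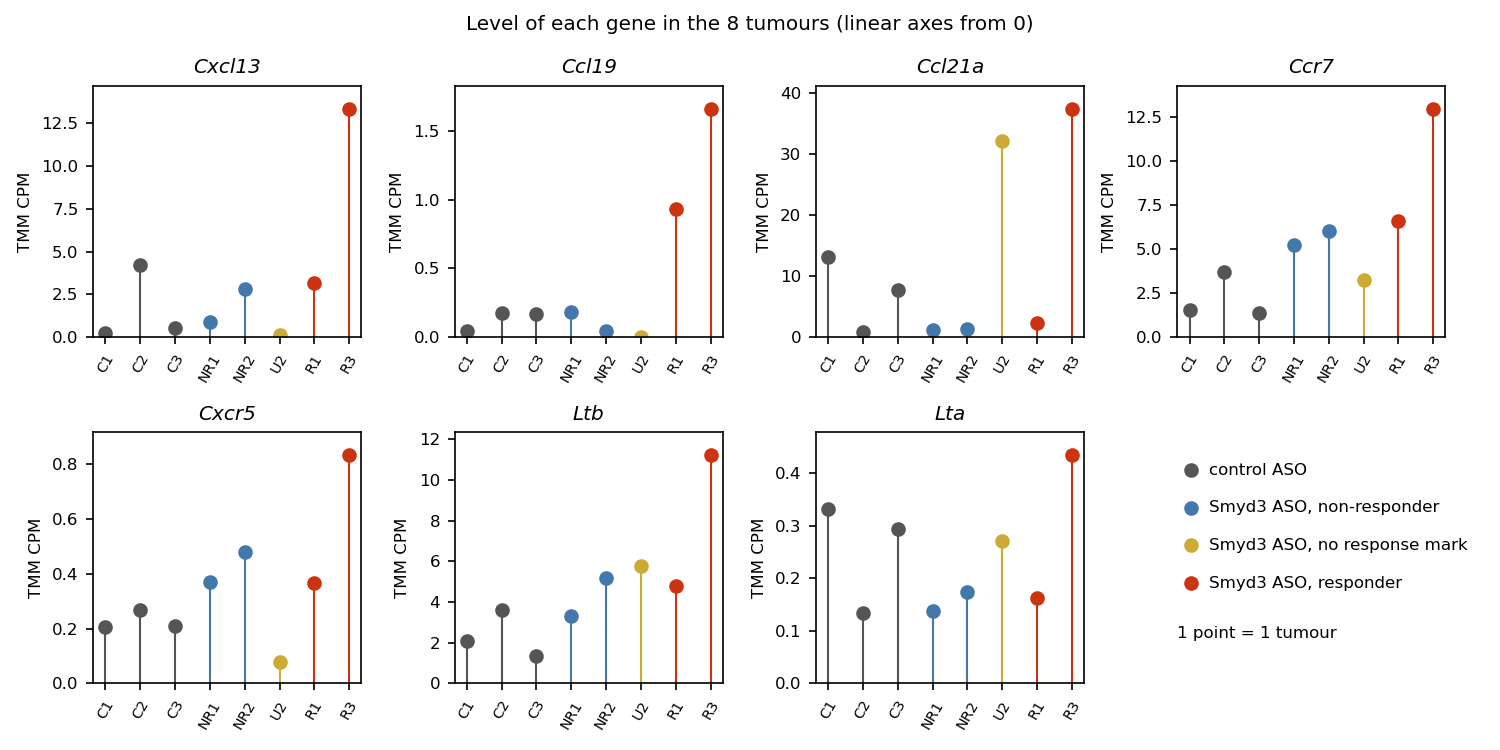
Each panel gives 1 gene, with its level in TMM CPM on a linear y axis from 0 and the 8 tumours on the x axis (C control ASO, NR non-responder, U no response mark, R responder), 1 point a tumour. Responder 3 is the highest point in all 7 panels, while unmarked 2 is second for Ccl21a (32.2 CPM) and lowest for Cxcl13 (0.116 CPM).

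The first comparison asked how the tumours of the Smyd3 ASO arm differed from the controls. Ccr7 and Ltb showed the clearest difference of the members, yet none of the 6 tested members passed an adjusted p of 0.05 in edgeR, and 0% of the 16911 tested genes did. The mean of Ccr7 was 2.19 ± 1.31 CPM in controls (SD, n = 3) and 6.81 ± 3.66 in the Smyd3 ASO arm (n = 5), a ratio of 3.10. Its log2 fold change was 1.63 (SE 0.520, edgeR unadjusted p = 0.0122, adjusted p = 0.198). For Ltb the means were 2.34 ± 1.16 and 6.06 ± 3.03 CPM, a ratio of 2.58, with a log2 fold change of 1.37 (SE 0.467, edgeR unadjusted p = 0.0168, adjusted p = 0.219).

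Ccr7 and Ltb each gave p = 0.0357 in the exact permutation test over the 56 splits, two-sided, where 0.0179 is the smallest p that the design allows. The same exact permutation test gave p = 0.518 for Cxcl13, 0.464 for Ccl19, 0.893 for Ccl21a, 0.446 for Cxcr5 and 0.821 for Lta. For the Ccl19 and Ccl21a families the exact permutation test gave p = 0.0893 and 0.875. These values were not adjusted for the number of genes. In Ccr7, Ltb, Cxcr5 and the Ccl19 family, 4 of 5 Smyd3 ASO tumours lay above the highest control. The share of all tested genes with that order was not counted. The 3 ligands did not differ beyond the spread: the log2 fold changes were 1.32 for Cxcl13 (SE 1.36), 2.11 for Ccl19 (SE 1.38) and 1.05 for Ccl21a (SE 1.36), with edgeR adjusted p-values of 0.697, 0.505 and 0.765. With 1 library left out, Cxcl13 ranged from 0.08 (without responder 3) to 3.51 (without control 2) and Ccl21a from 0.35 (without responder 3) to 1.80 (without control 1). Cxcr5 stood at 0.89 on the same log2 scale (SE 0.656, edgeR adjusted p = 0.562). With near copies summed, the Ccl19 family gave a log2 fold change of 2.62 (SE 0.970, edgeR unadjusted p = 0.0251, adjusted p = 0.258) and the Ccl21a family 1.16 (SE 1.44, adjusted p = 0.751).

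All 6 tested members had a log2 fold change above 0 in this comparison, as did 51.8% of all tested genes, and their median was 1.35 against 0.01 over all tested genes. By unadjusted p in edgeR, 2 of the 6 (Ccr7 and Ltb) were higher at p under 0.05, against 8.55% of all tested genes, and none was lower, against 7%. No member had arms without overlap, against 5.44% of tested genes higher and 5.15% lower. Without control 2 the arms of Ccr7 and of Ltb no longer overlapped. Without unmarked 2 this held for Ccr7 and Cxcr5, and without non-responder 1 for Ltb. The share over all tested genes was not counted for these smaller sets. Ccl19 passed the filter on low counts only through the 2 responders and Cxcr5 only through responder 3 and non-responder 2, so these counts and this median carry no weight as support.

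The number of genes called depended on the tool and on single libraries. Under edgeR 1446 genes were higher and 1184 lower at an unadjusted p under 0.05. limma voom called 0 genes, and DESeq2 called 1053 of 16911 (668 higher, 385 lower). Those held 2 of the 6 tested members, Ccr7 (DESeq2 adjusted p = 0.0239) and Ltb (adjusted p = 0.0491). Without non-responder 1, edgeR called 258 genes, and without control 1 it called 5, with no member among them in either case.

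Markers of other tissues differed between the arms in the same libraries. The 12 skeletal muscle genes lay higher in all 5 Smyd3 ASO tumours than in any control, with a median log2 fold change of 6.61. Their mean log2 CPM was between -0.58 and 2.23 in the controls and between 5.18 and 8.88 in the Smyd3 ASO arm. Acta1, the skeletal muscle actin, stood at 8.78 to 20.9 CPM in controls and at 143 to 2662 CPM in the Smyd3 ASO arm, highest in responder 3. The 9 tested adipocyte genes had a median log2 fold change of 5.39, and their mean log2 CPM was highest in responder 3 at 4.82. The part of this tissue in the values of the members was not tested, and in bulk RNA fewer cells of a type and less RNA per cell cannot be told apart.

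The second comparison, within the Smyd3 ASO arm, set the 2 responders against the 2 non-responders. Cxcl13, Ccl19, Ccl21a and Ccr7 were higher in both responders than in both non-responders, 4 of the 6 tested members, where 20.3% of all tested genes showed such a separation upward and 18.9% downward. Ccl19 was tested only because the 2 responders passed the filter on low counts, so its place in this count was set by the group where it was high, and the count is a description only. None passed an adjusted p of 0.05 in edgeR, as 0% of tested genes did. The mean of Ccl21a was 19.8 ± 24.9 CPM over the responders against 1.2 ± 0.11 over the non-responders (SD, n = 2 each), a ratio of 16.8, with a log2 fold change of 4.06 (SE 1.56, edgeR unadjusted p = 0.0355, adjusted p = 0.563). That value came from responder 3: without it the log2 fold change was 0.91. For Ccl19 the means were 1.3 ± 0.52 and 0.114 ± 0.0994 CPM, with a log2 fold change of 3.47 (SE 0.863, edgeR unadjusted p = 0.00473, adjusted p = 0.505).

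Summing the near copies narrowed the difference for Ccl19 and not for Ccl21a. The Ccl19 family averaged 3.31 ± 2.39 CPM over the responders against 0.71 ± 0.288 over the non-responders, with a log2 fold change of 2.21 (SE 0.772, edgeR adjusted p = 0.543), and of 1.19 without responder 3. The Ccl21a family gave 4.38 (SE 1.68, edgeR adjusted p = 0.562), and 0.97 without responder 3. Cxcl13 had a log2 fold change of 2.15 (SE 1.38, edgeR adjusted p = 0.689), or 0.77 without responder 3. The receptors and Ltb differed less, with log2 fold changes of 0.80 for Ccr7 (SE 0.561), 0.50 for Cxcr5 (SE 0.609) and 0.91 for Ltb (SE 0.587), and without responder 3 those of Ccr7 and Ltb were 0.24 and 0.17.

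All 6 tested members lay above 0 in that contrast, as did 51.6% of tested genes, with a median log2 fold change of 1.53 against 0.01 over all tested genes. Of these, Ccl19 and Ccl21a (2 of 6) were higher at an unadjusted edgeR p under 0.05, against 4.74% of tested genes, and none was lower, against 3.75%. As Ccl19 passed the filter through the responders alone, neither this count nor the median carries weight as support. Across all tested genes 802 were higher and 634 lower at that p in edgeR. limma voom called 0 genes and DESeq2 called 225, with no member among them. DESeq2 gave no adjusted p for Ccl19 and Cxcr5 here, so it could not call them. Without responder 1, edgeR called 21 genes. Lta, not tested, averaged 0.298 ± 0.192 CPM over the responders against 0.156 ± 0.0255 over the non-responders (SD, n = 2 each).

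**Figure D3:**
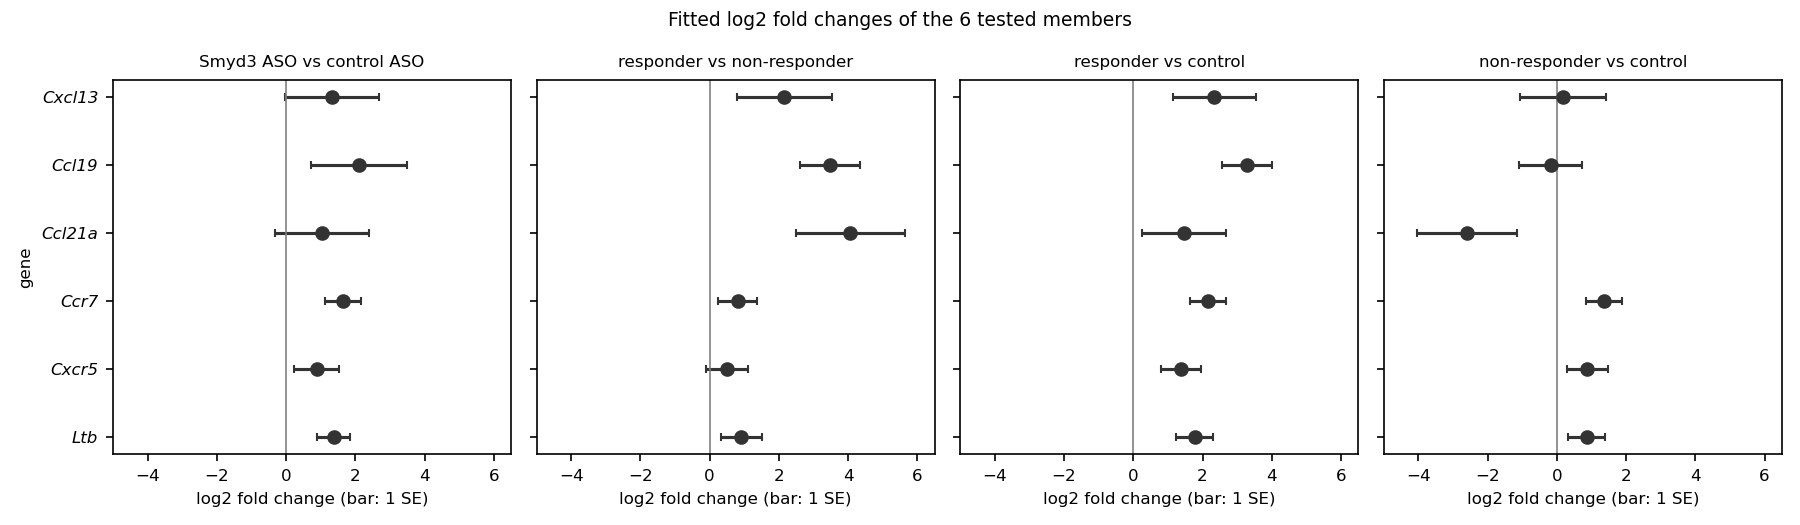
Points give the fitted edgeR log2 fold change (x axis) of the 6 tested members (y axis) in 4 contrasts, and bars give 1 SE on each side. Ccr7 and Ltb have the shortest bars in the first panel (SE 0.520 and 0.467), and Ccl21a lies at 4.06 between responders and non-responders but at -2.60 between non-responders and controls.

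Responders and non-responders were each also set against the 3 controls. These comparisons share their control samples, so the values are given side by side. Ccr7 stood at a log2 fold change of 2.16 in responders (SE 0.512, edgeR adjusted p = 0.0978) and 1.35 in non-responders (SE 0.513, adjusted p = 0.499). For Ltb the values were 1.77 (SE 0.530, edgeR adjusted p = 0.164) and 0.86 (SE 0.535, adjusted p = 0.669). Cxcr5 had 1.38 (SE 0.570, edgeR adjusted p = 0.288) and 0.88 (SE 0.593, adjusted p = 0.693).

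The ligands parted more widely between these contrasts. Ccl21a had a log2 fold change of 1.46 in responders (SE 1.20, edgeR adjusted p = 0.608) and -2.60 in non-responders (SE 1.44, adjusted p = 0.636). The responder value turned to -1.70 without responder 3. Cxcl13 gave 2.34 (SE 1.21, edgeR adjusted p = 0.394) and 0.19 (SE 1.24, adjusted p = 0.979). With 1 library left out, its responder value ranged from 0.94 (without responder 3) to 4.53 (without control 2) and its non-responder value from -0.90 (without non-responder 2) to 2.38 (without control 2). Ccl19 gave 3.29 (SE 0.726, edgeR adjusted p = 0.0853) and -0.18 (SE 0.921, adjusted p = 0.974). With the near copies summed, the Ccl19 family gave 3.58 (SE 0.723, edgeR adjusted p = 0.0686) and 1.37 (SE 0.753, adjusted p = 0.636). The non-responder sign of Ccl19 thus depended on how reads were divided among the copies. The Ccl21a family gave 1.60 (SE 1.28) and -2.78 (SE 1.54).

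In responders against controls edgeR called 280 genes (1.66% of those tested; 234 higher and 46 lower) and no member, although 4 members (Ccl19, Ccr7, Cxcr5 and Ltb) lay above all controls in both responders, against 18.7% of tested genes (17% lay below). All 6 tested members had a log2 fold change above 0, against 50.4% of tested genes, and those 4 were higher at an unadjusted edgeR p under 0.05, against 9.62% higher and 6.99% lower over all tested genes. No control reached the filter for Ccl19 or Cxcr5, and the responders brought in Ccl19 alone, so these counts are descriptions and support nothing. Without control 1, 2 or 3 the count was 0, 107 and 6, and without responder 3 it was 33. Without the filter on low counts edgeR called 499 of 27883 genes. Among them were 2 of 7 members, Ccl19 (edgeR adjusted p = 0.0474) and Ccr7 (adjusted p = 0.0322). DESeq2 called 1153 of 16911 genes. Those held 2 of 6 members, Ccr7 (DESeq2 adjusted p = 0.00238) and Ltb (adjusted p = 0.0297). In non-responders against controls 0% of tested genes were called by edgeR. There, 862 genes were higher and 700 lower at an unadjusted p under 0.05, DESeq2 called 339 genes and limma voom 0, and 2 members (Ccr7 and Cxcr5) lay above all controls, against 12.2% of tested genes (12.6% lay below). Of the tested members 4 had a log2 fold change above 0, against 51.1%, and 1 (Ccr7) was higher at an unadjusted edgeR p under 0.05, against 5.1% higher and 4.14% lower over all tested genes, and the same limit holds for Cxcr5 here.

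Across the 8 libraries the members did not vary as 1 block. Of the 21 pairs, 3 had a Pearson correlation of log2 CPM with a Benjamini-Hochberg adjusted exact permutation p under 0.05. Ccr7 and Ltb had r = 0.900 (exact permutation p = 0.00375, adjusted 0.0293, rho = 0.714), and r = 0.691 without control 3 and responder 3. Cxcl13 and its receptor Cxcr5 had r = 0.872 (exact permutation p = 0.00419, adjusted 0.0293, rho = 0.786), and r = 0.638 without unmarked 2 and responder 3. With 1 library left out, 6 pairs passed without unmarked 2, 5 without non-responder 2, and 0 without each of the other 6 libraries, so the calls of these pairs were lost in most such fits. No rank correlation passed after adjustment over the 21 pairs, the libraries of both arms were pooled, and an arm alone has fewer than 6 libraries.

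The third pair was Ccl21a and Lta, for which the libraries fell into separate sets, so no coefficient is given. In control 1, control 3, unmarked 2 and responder 3, Ccl21a was between 7.74 and 37.5 CPM and Lta between 0.272 and 0.434 CPM. In control 2, responder 1 and both non-responders, Ccl21a was between 0.758 and 2.23 CPM and Lta between 0.134 and 0.174 CPM. Each set held tumours of both arms, and the Lta values rested on 3 to 12 reads.

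Cxcl13 and Ccl21a, the ligands for B cell and T cell zones, had r = -0.261 (exact permutation p = 0.517, adjusted 0.901, rho = -0.238) over the 8 libraries. Without unmarked 2 and responder 3, r was -0.839. Responder 3 was highest in both genes. When the near copies were summed, the number of pairs under an adjusted p of 0.05 was 6, and the strongest was the Ccl19 family with its receptor Ccr7, for which fits without single libraries were not run. That pair had r = 0.942 (exact permutation p = 0.000223, adjusted 0.00469, rho = 0.976), and r = 0.938 without responder 1 and responder 3. The Ccl19 family also paired with Ltb (r = 0.865, exact permutation p = 0.00690, adjusted 0.0290, rho = 0.690) and Cxcl13 (r = 0.833, exact permutation p = 0.00833, adjusted 0.0292, rho = 0.786).

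**Figure D4:**
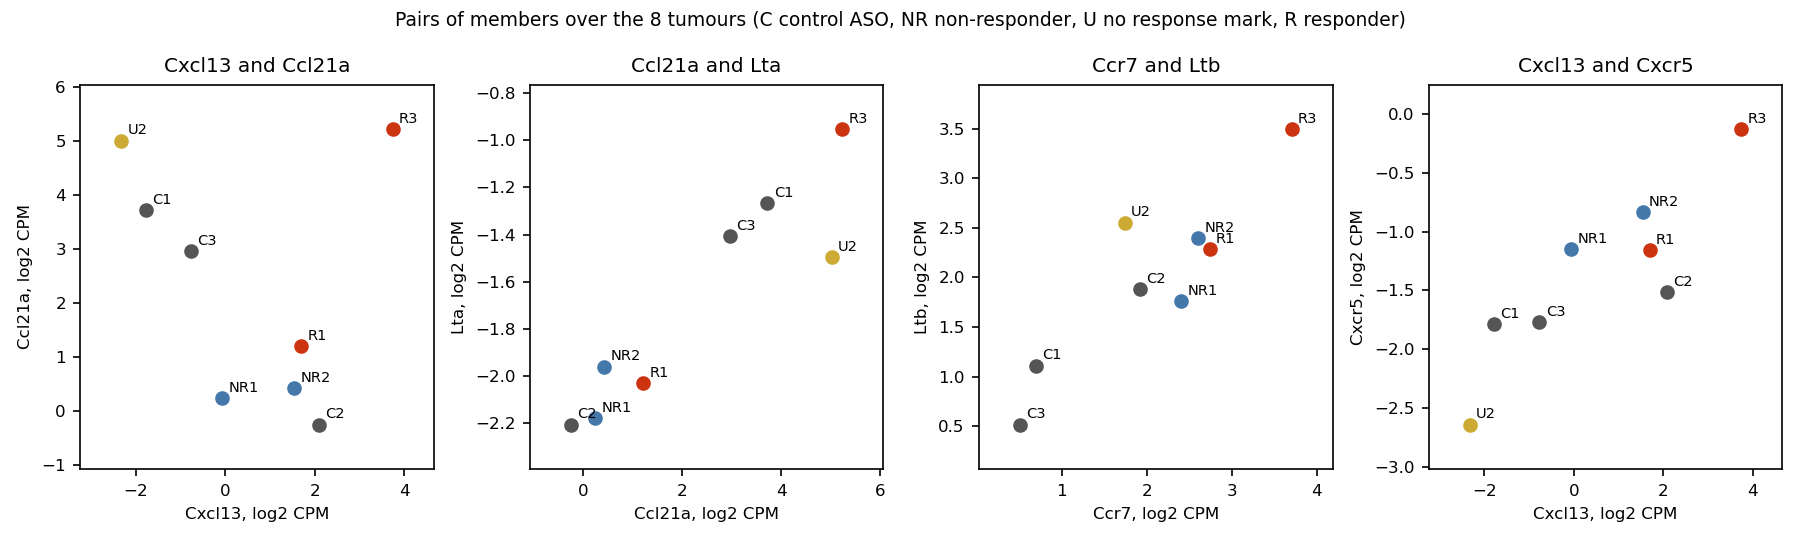
Each panel plots log2 TMM CPM (prior count 2) of 1 member against another, 1 point a tumour, coloured by group (grey control, blue non-responder, yellow no response mark, red responder). Cxcl13 and Ccl21a fall along a descending line except for responder 3 at the upper right, Ccl21a and Lta form separate sets of 4 tumours, and Ccr7 with Ltb and Cxcl13 with Cxcr5 ascend.

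For each member the 3 genes with the most alike pattern over the 8 libraries were found by Pearson r of log2 CPM among 13357 tested genes of at least moderate level, as a description without a test. Ccr7 was closest to Xcr1 (r = 0.987), Flt3 (0.986) and Cd164 (0.969), the first a receptor of cross-presenting dendritic cells and the second a growth factor receptor of dendritic cells. Ltb was closest to Cd74, the MHC class II invariant chain (r = 0.986), Ms4a4b (0.984) and Neurl3 (0.982). Ccl21a was closest to Cib2 (r = 0.977), Adh1 (0.945) and Mmrn1 (0.944), the last a gene of lymphatic endothelium. Cxcl13 was closest to Fabp4 (r = 0.957), Cd300lg (0.957) and Wdr41 (0.955), and Ccl19 to Trf (0.986), Arhgap28 (0.965) and Synj2bp (0.954). The genes nearest to Cxcr5 were Ogg1 (r = 0.924), Fpr1 (0.924) and Dlg2 (0.915). Those nearest to Lta were Acaa1a (r = 0.943), Renbp (0.930) and Ccl21a itself, whose coefficient is left out as above. Both Cxcr5 and Lta rested on few reads.

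The genes that answer or surround these signals were described with lists. Of the 18 genes of lymphotoxin receptor and NF-kB signalling, 11 were above 0 and 7 below in the Smyd3 ASO arm, with a median log2 fold change of 0.04. None passed in edgeR, and the lowest adjusted p was that of Tnf (log2 fold change 0.70, SE 0.162, edgeR adjusted p = 0.106). Ltbr, the lymphotoxin beta receptor, named here for its role after its values were seen, ranged only from 96.5 to 112.9 CPM over the 8 libraries while Ltb spanned 1.35 to 11.2 CPM. Birc3, an NF-kB target, stood at 22.9 ± 1.95 CPM in controls and 29.4 ± 5.73 CPM in the Smyd3 ASO arm (edgeR adjusted p = 0.370).

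Of 14 partners of the chemokine system, 13 were tested and 0 passed in edgeR in any of the 4 contrasts. Ackr4, the scavenging receptor for CCL19 and CCL21, stood at 0.0574 ± 0.0498 CPM in controls (SD, n = 3) and 0.545 ± 0.303 in the Smyd3 ASO arm (n = 5; log2 fold change 3.15, SE 0.975, edgeR adjusted p = 0.191). Ccl20, a ligand for CCR6, averaged 1.49 ± 0.394 CPM over the responders against 0.313 ± 0.0124 over the non-responders (log2 fold change 2.24, SE 0.670, edgeR adjusted p = 0.521). The 12 tested genes of high endothelial venules and homing adhesion had a median log2 fold change of 0.30 in the Smyd3 ASO arm. Madcam1, Glycam1 and Chst4, which mark these vessels of lymphocyte entry, lay between 0 and 0.51 CPM in all 8 libraries and were not tested. Icam1, an adhesion molecule of many cell types, stood at 49.2 ± 2.41 CPM in controls and 83.0 ± 20.5 CPM in the Smyd3 ASO arm (log2 fold change 0.75, SE 0.202, edgeR adjusted p = 0.143).

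The follicular dendritic cell receptor Cr2 was at or below 0.14 CPM in every library. Of the 10 lymphoid stroma genes 9 were tested and 0 passed in edgeR. Enpp2, which makes a lipid that guides lymphocyte entry, was the nearest of them between responders and non-responders, at 10.2 ± 0.533 and 3.85 ± 0.955 CPM (log2 fold change 1.41, SE 0.302, edgeR adjusted p = 0.492). In the same contrast, lymphoid stroma genes had a median of 0.65.

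Genes of the cells that carry CCR7 and CXCR5 were described in the same way. The 11 tested B cell genes had a median log2 fold change of 1.53 in the Smyd3 ASO arm and 1.41 between responders and non-responders, and 0 passed in edgeR in either. The mean log2 CPM of the B cell genes was -1.43, -0.62 and -0.53 in the controls, 0.48 in responder 1, -0.67 in unmarked 2, 1.40 in responder 3, and -1.09 and -0.41 in the non-responders. Both responders were thus above the other 6 libraries in the B cell genes, as they were in Ccl19.

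The 13 T cell genes had a median log2 fold change of 1.35 in the Smyd3 ASO arm, and Cd3d, a subunit of the T cell receptor complex, passed in responders against controls (log2 fold change 2.55, SE 0.359, edgeR adjusted p = 0.0270). Mature dendritic cell genes had a median of 0.71 in the Smyd3 ASO arm, and 0 of 12 passed in edgeR. Flt3 stood at 0.664 ± 0.403 CPM in controls and 2.10 ± 1.01 in the Smyd3 ASO arm (edgeR adjusted p = 0.196). The part of cell numbers in the levels of Ccr7, Cxcr5 and Ltb was not tested.

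Lymphatic endothelial genes were highest in 3 of the 4 libraries in which Ccl21a was high. Their mean log2 CPM over 6 tested genes was 1.87 in control 1, 2.42 in unmarked 2 and 2.42 in responder 3, and between 0.10 and 1.09 in the other 5 libraries. Mmrn1, named for its likeness to Ccl21a, was at 4.74, 7.76 and 6.62 CPM in those 3 tumours and at 1.72 CPM in control 3, the fourth tumour with high Ccl21a, but between 0.04 and 0.60 CPM in the other 4. Prox1 (1.04, 3.10 and 1.56 CPM) and Reln (2.83, 3.26 and 5.21 CPM) were also highest in control 1, unmarked 2 and responder 3. In the other 5 libraries Prox1 reached at most 0.61 CPM and Reln at most 1.38 CPM. Lyve1, Flt4 and Stab2 did not share that order. Lyve1 was highest in control 2 (17.8 CPM), where Ccl21a was lowest. Flt4 was at 17.6, 17.6 and 17.9 CPM in the 3 controls, and Stab2 lay between 0.67 and 1.34 CPM. The list held Ccl21b, a near copy of Ccl21a, which was listed at 0.65 reads at most and was not among the 6. Between responders and non-responders the list had a median log2 fold change of 1.59 and 0 of 6 genes passed in edgeR. The part of lymphatic vessels in the Ccl21a level was not tested.

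**Figure D5:**
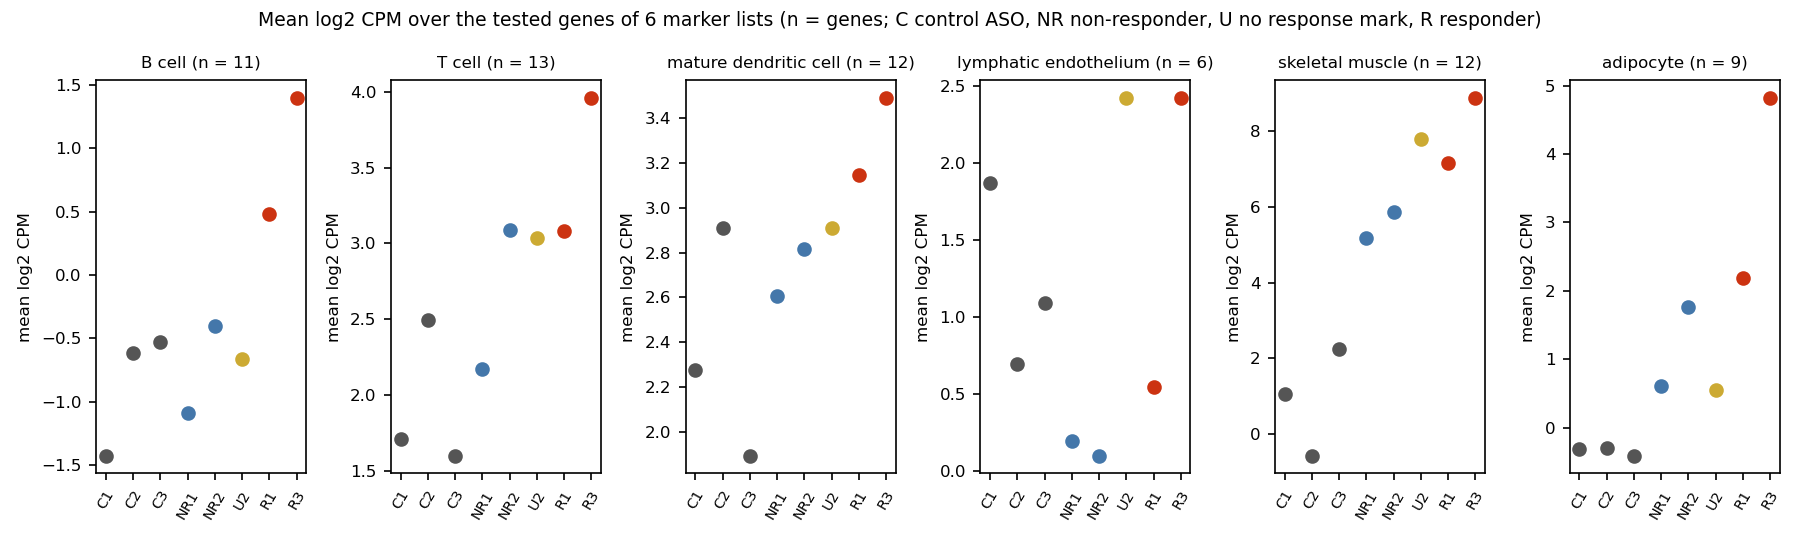
Each panel gives the mean log2 TMM CPM (y axis, not starting at 0) over the tested genes of 1 marker list in the 8 tumours (x axis), coloured as the points of the member levels (grey control, blue non-responder, yellow no response mark, red responder). Responder 3 is highest for B cell (1.40), T cell (3.96), mature dendritic cell (3.49), skeletal muscle (8.88) and adipocyte genes (4.82), and it shares the top of the lymphatic endothelium panel with unmarked 2 (2.42 each).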

How the data were processed

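Poly(A) RNA was prepared with a stranded kit, per the labels' protocols. Reads were processed with bcl2fastq 2.17, cutadapt 1.18, STAR 2.7.0f and RSEM 1.3.0 on mm10, per the submitters' processing notes; the annotation and the strand setting of the counting are not given in the sources used here. The deposited table holds expected counts per gene, not normalised by the authors; all 55450 gene identifiers were found in GENCODE M21.

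Expected counts were rounded. Genes were kept with at least 0.424 CPM (10 reads in the median library) in at least 2 libraries and a total of at least 15, which left 16911 genes with 99.93% of the reads. edgeR 4.0.16 (TMM, robust quasi-likelihood F test, R 4.3.3) compared the arms in a 2-group model and the other contrasts in a 4-group model over all 8 libraries, with Benjamini-Hochberg adjustment over all genes kept and a threshold of 0.05. The SE is the log2 fold change divided by the square root of F. log2 CPM used a prior count of 2. Near copies were found by aligning annotated transcripts (at least 95% identity over 300 bases). DESeq2 1.42.0, limma 3.58.1 (voom), other size factors, no filter, fewer libraries and a replicate block were alternatives, and summing near copies was added after seeing the data. The fits were tested on simulated data.

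The 7 members and 15 lists (170 genes, all in the table) were chosen with earlier results of these data known. Named genes were the members, rows beginning with Ccl19 or Ccl21, list genes past the threshold (at most 4 by p) or otherwise those with the 2 smallest p in the arm and in the responder contrast, and the 3 genes most alike to each member. Markers described as near 0, Ltbr, Lum, Prox1, Reln, Bcl9l, 4930578G10Rik and the near copies with other names were named after their values were seen.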

Additional observations from a re-analysis of the deposited data

Results flagged for a closer look

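Among the 5 Smyd3 ASO tumours, the Cxcl13 level of responder 3, 13.35 CPM, stood apart from the others: the gap to the next tumour was 0.7699 of the whole range, past Dixon's critical value of 0.71 for 5 samples. The Ccl19 family, with near copies summed, showed the same in responder 3, at 4.994 CPM and a gap of 0.7385 of the range. Ccl19 by itself, Ccl21a, Ccr7, Cxcr5, Ltb and Lta were also highest in responder 3, with gaps of 0.44, 0.1445, 0.6547, 0.4683, 0.688 and 0.5493 of the range, none past that value. The critical value assumes normally distributed values, while the ratios were taken on CPM without logs, so how often chance passes it here is not known. On the log2 scale Cxcl13 was 3.75 in responder 3, 1.70 in responder 1 and -2.33 in unmarked 2. The Ccl19 family was 2.34, 0.77 and -0.97 in the same tumours. In both the gap was a smaller part of the range than on CPM. The genes also share their libraries.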

How the results depend on the processing

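Which members were called depended on the tool, and no alternative called Cxcl13, Ccl21a or Cxcr5. DESeq2 gave Ccl19 and Cxcr5 no adjusted p when non-responders were set against responders or controls, so it could not call them there. In the Smyd3 ASO arm against controls, the 0 genes called by edgeR became 52 of 27883 without the count filter, with no member. DESeq2 called 1053 of 16911 (668 higher, 385 lower), among them 2 of the 6 tested members. edgeR called 286 in the 6 numbered libraries, and 0 to 258 when 1 library was left out. Adding the replicate number as a block in those 6 libraries gave 245 calls and no member. Same-numbered libraries had deviations correlated at -0.034, 0.000153 and 0.0764. With only 6 libraries, these values cannot show whether the numbers mark anything shared, and the labels do not say. Between responders and non-responders the count was 7 without the filter, 225 with DESeq2 and 0 to 21 with 1 library left out. For responders against controls, 280 became 499 of 27883 genes without the filter (2 of 7 members). DESeq2 called 1153 of 16911 (2 of 6 members), limma voom 135, and fits with 1 library left out 0 to 276. For non-responders against controls, the count was 32 without the filter and 339 with DESeq2. The cause of these differences was not tested. Members with arms that did not overlap numbered 0 to 2 with 1 library left out, and correlated pairs 0 to 6, or 6 with near copies summed.

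Directions changed in 8 values. Ccl21a in responders against controls ranged from -1.70 without responder 3 to 2.37 without responder 1. In non-responders against controls, Ccl19 turned to 1.37 with near copies summed and to 0.11, 0.04 and 0.50 without control 2, control 3 and non-responder 2 (range with 1 library left out -1.46 to 0.50), and Cxcl13 to -0.34, -0.26 and -0.90 without control 1, control 3 and non-responder 2 (range with 1 library left out -0.90 to 2.38). Another 242 values of single members or families kept their direction and their side of the threshold, and 6 newly passed it. The 242 include the DESeq2 values of Ccl19 and Cxcr5 that had no adjusted p.

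Depth limited Lta (3 to 12 reads), Cxcr5 (2 to 23 reads) and Ccl19 (0 to 46.1 reads), where counting error alone is large. A count of 0 allows up to 3 reads. Groups of 2 and 3 libraries limited the rest.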

Other observations

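Other lists of the same tumours showed values beside those of the lymphoid-homing genes. Of 9 tested germinal centre and follicular helper T cell genes, 0 passed in edgeR in any of the 4 contrasts, with a median log2 fold change of 0.95 in the Smyd3 ASO arm. Among them Cd40, the receptor through which T cells activate B cells, stood at 4.14 ± 1.64 CPM in controls (SD, n = 3) and 7.91 ± 2.34 CPM in the Smyd3 ASO arm (n = 5; edgeR adjusted p = 0.244). Il21r, the receptor for a follicular helper cytokine, averaged 19.6 ± 7.27 CPM over the 2 responders against 9.98 ± 2.14 over the 2 non-responders (edgeR adjusted p = 0.578). The 8 macrophage genes had a median of 0.12 in the Smyd3 ASO arm, and 1 of them, Cd14, a coreceptor for bacterial lipopolysaccharide, passed in responders against controls (log2 fold change 0.87, SE 0.143, edgeR adjusted p = 0.0373).

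Of the 8 fibroblast genes, 5 had a log2 fold change below 0 and 3 (Pdgfra, Lum and Dcn) above 0 in the Smyd3 ASO arm, with a median of -0.57, and 0 passed in edgeR. Pdgfrb, a growth factor receptor of fibroblasts and pericytes, stood at 110 ± 27.3 CPM in controls and 55.1 ± 4.02 CPM in the Smyd3 ASO arm (edgeR adjusted p = 0.0656). The 8 blood endothelium genes had a median of -0.15 in the Smyd3 ASO arm and 0.59 between responders and non-responders, and the 8 keratinocyte genes -0.19 and -0.60, with 0 calls in either. In responders against controls 10 of 12 skeletal muscle genes and 3 of 9 tested adipocyte genes passed in edgeR, among them Myh1, a fast muscle myosin (log2 fold change 5.10, SE 0.525, adjusted p = 0.0187), and Cfd, an adipocyte-secreted protease (9.73, SE 1.46, adjusted p = 0.0315).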
